A study of Mus musculus with 12 samples.

Results

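A set of 9 genes of the antibody-secreting programme was followed across stimulated mouse B cells: Ighm, Iglv1, Jchain and Mzb1, which encode secreted products or help to make them, and Sdc1, Tnfrsf17, Slamf7, Cd93 and Cd44, which encode surface molecules. A probe set, the group of oligonucleotides that measures a transcript, was taken as a member when the array's annotation names that gene and no other. The 9 were among 18193 genes with a probe set of their own. They had 31 of the 45037 probe sets tested: 11 for Ighm, 5 for Cd93, 4 each for Sdc1 and Cd44, 3 for Iglv1 and 1 each for Jchain, Mzb1, Tnfrsf17 and Slamf7. The mean over the 12 arrays lay above that of the median probe set (5.22 on the log2 scale) for 22 of the 31, and at or under it for 9.

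When a B cell becomes a plasma cell it turns its immunoglobulin genes up, switches the heavy chain transcript from the membrane to the secreted form, and enlarges the endoplasmic reticulum in which antibody is folded. IgM leaves the cell as a polymer of Ighm heavy chains and light chains joined by the J chain, the product of Jchain, and Mzb1 is an endoplasmic reticulum protein that assists the assembly and secretion of IgM. On the surface, syndecan-1 (CD138, from Sdc1) is the classical marker of plasma cells, BCMA (from Tnfrsf17) is a receptor for APRIL and BAFF that plasma cells use to survive, and CD93, CD44 and SLAMF7 are adhesion or signalling molecules that plasma cells share with myeloid cells, activated lymphocytes or NK cells.

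RNA came from B220+ cells taken with magnetic beads from spleens of C57BL/6 mice that carry the transgene Tg(IghelMD4)4Ccg, known as MD4, which gives B cells a receptor for hen egg lysozyme (HEL). All 6 groups received HEL in culture together with IL21 and anti-CD40, and differed in the RNA interference reagent and in time: Jmjd2a depleted, Jmjd2c depleted and control cells at day 3, and the same 3 at day 1, with 2 arrays each. Jmjd2a and Jmjd2c are the histone H3 demethylases now named Kdm4a and Kdm4c, and the series asks which genes they regulate in plasma cell differentiation. The labels speak of si reagents in one field and of sh virus in another, and give no age, no sex and no number of animals behind an array. The receptor is transgenic and directed against 1 antigen, and the cells were grown outside the animal, which limits the groups as a model of an antibody response. The titles call replicates biological without naming separate cultures or animals, so p-values measure only the spread between these arrays, which may be technical. The descriptions of both day 3 control arrays carry the same tag, so separate cultures behind them could not be verified. A day 0 named in the design was not analysed here.

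The targeted transcripts, each read by its gene's brightest probe set alone, did not differ past the test under their own label. Kdm4a averaged 8.06 ± 0.03 on the Jmjd2a-labelled arrays of day 3, against 8.18 ± 0.02 in controls (log2, SD, n = 2 each; adjusted p = 0.361), and at day 1 8.02 ± 0.11 against 7.91 ± 0.02 in controls (adjusted p = 0.622). For Kdm4c the Jmjd2c-labelled arrays averaged 7.79 ± 0.02 at day 3, against 7.76 ± 0.29 in controls (adjusted p = 0.909), and at day 1 8.0 ± 0.03 against 7.81 ± 0.04 in controls (adjusted p = 0.406). The groups are therefore called Jmjd2a-labelled and Jmjd2c-labelled throughout. Replicate 2 of the day 3 controls stood apart from the other arrays: the interquartile range of its values was 3.08, against 3.38 to 3.63 elsewhere, its 18S RNA control probe sets averaged 10.73, against 11.73 to 12.73 elsewhere, and it correlated with its replicate at 0.989 across probe sets, against 0.996 to 0.998 in the other groups. All 7 measured B cell markers lay above the array median on all 12 arrays, and so did 6 of the 7 plasma cell markers, the exception being Tnfrsf17. Probe sets of markers of other spleen cells also differed between groups, and their levels are given after the members.

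At day 3, Ighm, Jchain, Mzb1, Slamf7 and Cd44 fell under both labels relative to controls by their brightest probe sets, as did Iglv1, and Sdc1 rose. With Jmjd2a, 19 of the 31 probe sets passed the test (adjusted p under 0.05 in limma, which pools the spread over all groups), 6 higher and 13 lower, where 20.8% of all probe sets passed, 13.7% higher and 7.11% lower. With Jmjd2c, 17 passed, 6 higher and 11 lower, against 14.3% of all probe sets, 9.28% higher and 5.04% lower. The median difference of the 31 was -0.382 and -0.308 (log2), against -0.0425 and -0.0108 over all probe sets. Some of these calls ended under each label without control day 3 replicate 2, as given with the members. Both comparisons use the same control arrays and are therefore not independent.

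At day 1, Ighm, Jchain and Mzb1 rose under both labels and Sdc1 fell. With Jmjd2a, 9 of 31 passed, 7 higher and 2 lower, against 7.47% of all probe sets (4.23% higher and 3.25% lower), and with Jmjd2c 10 passed, 8 higher and 2 lower, against 11% (5.32% higher and 5.69% lower). Between day 3 and day 1 the control cells changed in 21 of 31, 15 higher and 6 lower at day 3, against 23.8% of all probe sets (8.46% higher and 15.4% lower). Over the same days 5 of 31 passed under the Jmjd2a label, 1 higher and 4 lower, against 5.61% of all (2.26% higher and 3.35% lower), and 12 of 31 under the Jmjd2c label, 6 higher and 6 lower, against 8.63% of all (3.27% higher and 5.36% lower). The count of 5 rested on single arrays. Calls ended without Jmjd2a day 1 replicate 1 or either Jmjd2a day 3 array. Others were gained without Jmjd2a day 1 replicate 2 or control day 3 replicate 2. Calls among the 12 ended without any 1 of the Jmjd2c arrays. The difference from control itself changed between the days, by an interaction term, in 17 of 31 with Jmjd2a, 5 higher and 12 lower, against 18.3% of all probe sets (12% higher and 6.36% lower), and in 18 of 31 with Jmjd2c, 5 higher and 13 lower, against 17.5% (10.7% higher and 6.84% lower).

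**Figure D1:**
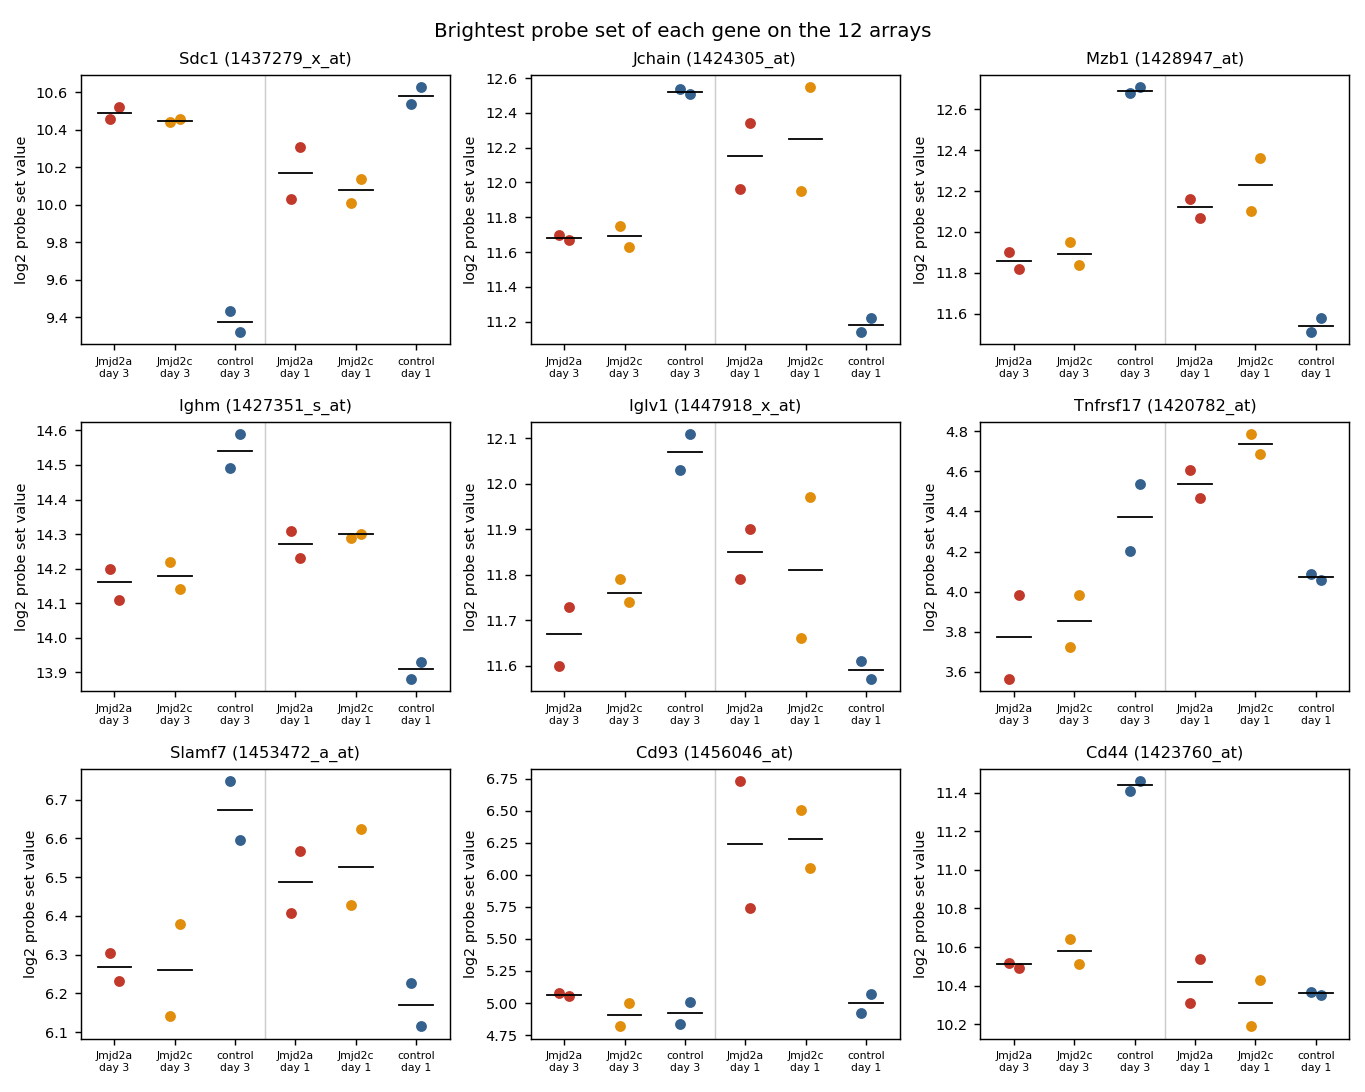
Log2 value of the brightest probe set of each of the 9 genes (vertical axis) on each of the 12 arrays, by group; points are arrays and black lines are means of 2. For Mzb1 and Ighm the day 3 controls lie highest and the day 1 controls lowest, for Jchain the day 3 controls overlap the Jmjd2c-labelled arrays of day 1, and for Sdc1 the day 3 controls, at 9.43 and 9.32, lie lowest. Vertical scales differ between panels.

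Ighm encodes the constant region of the IgM heavy chain. Its brightest probe set, 1427351_s_at, which was also the brightest member, read at day 3 14.20 and 14.11 on the Jmjd2a-labelled arrays and 14.22 and 14.14 on the Jmjd2c-labelled arrays, against 14.49 and 14.59 on control arrays (log2). At day 1 it read 14.31 and 14.23 with the Jmjd2a label and 14.29 and 14.30 with the Jmjd2c label, against 13.88 and 13.93 in controls. The control arrays were the highest of the 12 at day 3 and the lowest at day 1, and neither label overlapped the controls of its day. With 2 arrays per group a lack of overlap can arise by chance, here and for every member, and it was not used as a test. The level was 0.767 times that of controls with Jmjd2a at day 3, a log2 difference of -0.38 (SE 0.0418, adjusted p = 6.5e-05), and 0.777 times with Jmjd2c, a difference of -0.36 (SE 0.0418, adjusted p = 0.000112). At day 1 it was 1.28 times and 1.31 times the control level (differences of 0.36 and 0.39, adjusted p = 0.000303 and 0.000116). In control cells it was 1.55 times higher at day 3 than at day 1 (difference 0.63, adjusted p = 9.11e-07). In bulk RNA, fewer cells of a type and less RNA per cell cannot be told apart, which holds for every member.

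The next brightest Ighm probe set, 1427329_a_at, moved in the same direction and by more. It read at day 3 13.39 and 13.30 on the Jmjd2a-labelled arrays and 13.39 and 13.31 on the Jmjd2c-labelled arrays, against 13.98 and 13.91 on control arrays. At day 1 its values were 13.80 and 13.58 with the Jmjd2a label and 13.83 and 13.78 with the Jmjd2c label, against 12.95 and 12.83 in controls. It fell under both labels at day 3, by 0.60 and 0.59 on the log2 scale (adjusted p = 5.43e-05 and 6.99e-05), and rose at day 1, by 0.80 and 0.92 (adjusted p = 1.61e-05 and 3.98e-06). Its rise in controls between the days, 1.05, exceeded that of the brightest probe set by 0.42 (adjusted p = 0.0354 over all pairs of a gene's brightest probe set with each of its others), and its day 1 difference with Jmjd2c by 0.53 (adjusted p = 0.0303). Between day 3 and day 1 it fell by 0.34 under the Jmjd2a label (adjusted p = 0.00735) and by 0.45 under the Jmjd2c label (adjusted p = 0.000857). The Jmjd2a call ended without Jmjd2a day 1 replicate 1 (-0.24, adjusted p = 0.0698) or Jmjd2a day 3 replicate 2 (-0.30, adjusted p = 0.11).

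Probe set 1425385_a_at of Ighm went the opposite way in 1 group. It read 12.54 and 12.57 with Jmjd2a and 12.61 and 12.69 with Jmjd2c at day 3, against 10.14 and 10.25 in controls, and at day 1 12.30 and 12.93 with Jmjd2a and 12.43 and 12.47 with Jmjd2c, against 12.58 and 12.75 in controls. Both day 3 control arrays lay apart from all other arrays, which spanned 12.30 to 12.93. It was 5.14 times and 5.46 times the day 3 control level under the Jmjd2a and Jmjd2c labels (log2 differences of 2.36 and 2.45, adjusted p = 1.7e-06 and 1.59e-06), and in controls it was 0.181 times as high at day 3 as at day 1 (difference -2.47, adjusted p = 3.51e-07). At day 1 its differences of -0.05 and -0.22 did not pass. Set against the brightest probe set on each array, its change was unequal by 2.74 with Jmjd2a and 2.81 with Jmjd2c at day 3 and by -3.10 between the days in controls (adjusted p = 0.000545, 0.000424 and 5.33e-05). A probe set name ending in a_at marks probes that several transcripts of a gene share. Which form of the Ighm transcript each probe set reads was not determined here. Nor was it determined whether probe sets ending in x_at or s_at also bind transcripts of other genes.

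A group of 4 dimmer Ighm probe sets (1427870_x_at, 1425247_a_at, 1427756_x_at and 1425324_x_at, with means of 8.29 to 9.78) shared another pattern. The example 1425324_x_at read at day 3 8.50 and 8.38 on the Jmjd2a-labelled arrays and 8.46 and 8.42 on the Jmjd2c-labelled arrays, against 9.04 and 8.96 on control arrays. Its day 1 values were 7.62 and 8.24 with the Jmjd2a label and 7.59 and 7.94 with the Jmjd2c label, against 8.08 and 8.22 in controls. All 4 were higher in controls at day 3 than at day 1, by 0.59 to 0.85 (adjusted p between 0.00314 and 0.0107), and under the Jmjd2c label by 0.67 to 0.73 (adjusted p between 0.00961 and 0.0456). At day 1 none passed against control, with differences of -0.24 to -0.16 for Jmjd2a and -0.38 to -0.32 for Jmjd2c. Their sign at day 1 was opposite to that of the brightest pair, but with Jmjd2a it rested on 1 array. Without Jmjd2a day 1 replicate 1 the differences were 0.04 to 0.22. With Jmjd2c they stayed negative without each array in turn, from -0.56 to -0.16. At day 3 only 1425324_x_at passed among the 4, at -0.56 and -0.56 (adjusted p = 0.0356 and 0.0482). That call ended without any 1 of the day 3 arrays it uses, with values of -0.62 to -0.50 for Jmjd2a and -0.60 to -0.52 for Jmjd2c. Without control day 1 replicate 1, the control change of 1427870_x_at, 1425247_a_at and 1427756_x_at was 0.50, 0.75 and 0.73 and no longer passed (adjusted p = 0.105, 0.0681 and 0.0792). All 4 calls under the Jmjd2c label between the days ended without either Jmjd2c day 3 array and without Jmjd2c day 1 replicate 1, with values from 0.50 to 0.78. Those of 1425247_a_at and 1427756_x_at also ended without Jmjd2c day 1 replicate 2 (0.83 and 0.85).

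Of the remaining 4 Ighm probe sets, 1452535_at had the brightest one's order of groups. It read 7.16 and 7.33 with Jmjd2a at day 3, against 7.78 and 8.06 in controls, a difference of -0.68 (adjusted p = 0.0262), and rose in controls between the days by 0.71 (adjusted p = 0.0176). Without control day 3 replicate 2 these were -0.54 (adjusted p = 0.122) and 0.57 (adjusted p = 0.0878), and neither passed. The day 3 call also ended without either Jmjd2a array (-0.76 to -0.59) and the control call without either day 1 array (0.66 to 0.77). The last 3, 1427869_at, 1451949_at and 1426196_at, averaged 4.22 to 5.15, under the median probe set, and passed in no comparison.

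**Figure D2:**
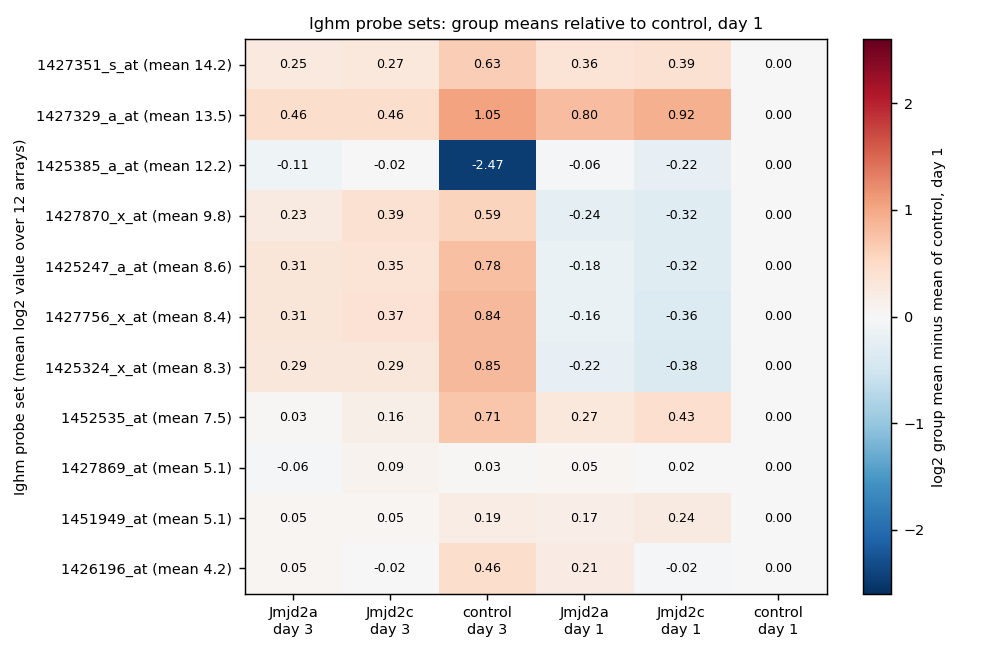
Each row is 1 of the 11 Ighm probe sets, ordered by mean log2 value over the 12 arrays, and each column 1 group; numbers and colours give the group mean minus the mean of the day 1 controls (log2, n = 2 arrays each). The day 3 controls reach 0.63 and 1.05 in the top rows and -2.47 for 1425385_a_at.

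Iglv1 is a variable segment of the lambda light chain. Its brightest probe set, 1447918_x_at, read at day 3 11.60 and 11.73 on the Jmjd2a-labelled arrays and 11.79 and 11.74 on the Jmjd2c-labelled arrays, against 12.03 and 12.11 on control arrays, and at day 1 11.79 and 11.90 with the Jmjd2a label and 11.66 and 11.97 with the Jmjd2c label, against 11.61 and 11.57 in controls. The day 3 controls were the highest of the 12 arrays. It fell at day 3 by 0.40 with Jmjd2a and 0.31 with Jmjd2c (log2, adjusted p = 0.00534 and 0.0303), and in controls it was 0.48 higher at day 3 than at day 1 (adjusted p = 0.00135). Day 1 differences of 0.26 and 0.22 did not pass. The Jmjd2a call at day 3 ended without Jmjd2a replicate 1 (-0.34, adjusted p = 0.0642), and the Jmjd2c call without control replicate 2 (-0.27) or either Jmjd2c array (-0.33 and -0.28).

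A further Iglv1 probe set, 1430523_s_at, read 11.31 and 11.23 with Jmjd2a and 11.22 and 11.07 with Jmjd2c at day 3, against 12.03 and 11.88 in controls, and at day 1 11.30 and 11.71 with Jmjd2a and 11.34 and 12 with Jmjd2c, against 10.73 and 10.82 in controls. It fell at day 3 by 0.68 and 0.80 (adjusted p = 0.0137 and 0.00689) and rose at day 1 by 0.73 and 0.90 (adjusted p = 0.0215 and 0.00523). The control change between the days was 1.18 (adjusted p = 0.000318), larger by 0.70 than that of the brightest probe set (adjusted p = 0.0179). Single arrays carried some of these calls. At day 1 the Jmjd2a call ended without either control array (0.69 and 0.78) or Jmjd2a replicate 2 (0.53), and the Jmjd2c call without control replicate 1 (0.85), while it was 0.57 without Jmjd2c replicate 2. At day 3 the Jmjd2a call ended without either Jmjd2a array (-0.72 and -0.65) and the Jmjd2c call without Jmjd2c replicate 2 (-0.73).

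Iglv1 probe set 1427292_at disagreed with both. It read 7.33 and 7.42 with Jmjd2a and 7.06 and 7.18 with Jmjd2c at day 3, against 5.34 and 5.73 in controls. At day 1 the values were 9.94 and 8.67 with the Jmjd2a label and 9.85 and 9.37 with the Jmjd2c label, against 7.38 and 7.39 in controls. The day 3 controls were the lowest arrays and the labelled arrays of day 1 the highest. It was 3.59 times and 3 times the control level at day 3 (log2 differences 1.85 and 1.59, adjusted p = 0.0011 and 0.00365), and 3.78 times and 4.67 times at day 1 (1.92 and 2.22, adjusted p = 0.00237 and 0.000658). It was lower at day 3 than at day 1 under the Jmjd2a label (-1.92), under the Jmjd2c label (-2.49) and in controls (-1.85), with adjusted p = 0.00276, 0.000319 and 0.000787. Against the brightest Iglv1 probe set its change was unequal in 6 of the 7 comparisons, all but the Jmjd2a label over time, by 2.25 and 1.89 at day 3 and 1.66 and 2.00 at day 1 (adjusted p = 0.00743, 0.0204, 0.0482 and 0.0158).

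Jchain, which joins IgM into pentamers, was read by 1 probe set. On the day 3 arrays it stood at 11.70 and 11.67 on the Jmjd2a-labelled arrays and 11.75 and 11.63 on the Jmjd2c-labelled arrays, against 12.54 and 12.51 on control arrays. On the day 1 arrays it stood at 11.96 and 12.34 with the Jmjd2a label and 11.95 and 12.55 with the Jmjd2c label, against 11.14 and 11.22 in controls. The labels lay below the controls at day 3 and above them at day 1 with no overlap, and the day 1 values of replicate 2 were higher than those of replicate 1 under both labels. The level was 0.559 times the control level with Jmjd2a at day 3 (log2 difference -0.84 (SE 0.153, adjusted p = 0.00214)) and 0.562 times with Jmjd2c (-0.83 (SE 0.153, adjusted p = 0.00281)). At day 1 it was 1.96 times with Jmjd2a (0.97, adjusted p = 0.00231) and 2.1 times with Jmjd2c (1.07, adjusted p = 0.000909). In controls it rose 2.54-fold between the days (difference 1.34, adjusted p = 5.33e-05). Under the Jmjd2c label it was -0.56 at day 3 relative to day 1 (adjusted p = 0.043), which was -0.26 without Jmjd2c day 1 replicate 2 (adjusted p = 0.29), -0.86 without replicate 1, and no longer passed without either Jmjd2c day 3 array (-0.62 and -0.50). With Jmjd2a the same difference was -0.47 and did not pass (adjusted p = 0.111).

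Mzb1 was read by 1 probe set too. It stood at day 3 at 11.90 and 11.82 on the Jmjd2a-labelled arrays and 11.95 and 11.84 on the Jmjd2c-labelled arrays, against 12.68 and 12.71 on control arrays, and at day 1 12.16 and 12.07 with the Jmjd2a label and 12.10 and 12.36 with the Jmjd2c label, against 11.51 and 11.58 in controls. Controls were again the highest group at day 3 and the lowest at day 1, without overlap. Mzb1 stood at 0.56 times and 0.573 times the control level at day 3 (log2 differences -0.84 (SE 0.0734, adjusted p = 1.43e-05) and -0.80 (SE 0.0734, adjusted p = 2.25e-05)), and at 1.49 times and 1.6 times at day 1 (0.57 and 0.68, adjusted p = 0.000597 and 0.000118). In controls it rose 2.22-fold at day 3 relative to day 1 (adjusted p = 7.17e-07). It fell by 0.33 under the Jmjd2c label between the days (adjusted p = 0.0144), a call that ended without Jmjd2c day 1 replicate 2 (-0.20) or day 3 replicate 2 (-0.28). Under the Jmjd2a label the same difference was -0.26 and did not pass (adjusted p = 0.065), and it passed in 6 of 12 alternatives. For Jchain, Mzb1 and both leading Ighm probe sets, the calls against control on both days and over time in controls held without each array in turn.

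Sdc1 ran against Jchain, Mzb1 and both leading Ighm probe sets in all 4 of its probe sets. The brightest, 1437279_x_at, read at day 3 10.46 and 10.52 on the Jmjd2a-labelled arrays and 10.44 and 10.46 on the Jmjd2c-labelled arrays, against 9.43 and 9.32 on control arrays, and at day 1 10.03 and 10.31 with the Jmjd2a label and 10.01 and 10.14 with the Jmjd2c label, against 10.54 and 10.63 in controls. The day 3 controls were the lowest group and the day 1 controls the highest. Sdc1 was 2.16 times the day 3 control level with Jmjd2a (log2 difference 1.11 (SE 0.0881, adjusted p = 7.14e-06)) and 2.1 times with Jmjd2c (1.07 (SE 0.0881, adjusted p = 1.14e-05)). In controls it was 0.434 times as high at day 3 as at day 1 (difference -1.20, adjusted p = 1.88e-06).

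The other 3 Sdc1 probe sets, 1415943_at, 1415944_at and 1448158_at, moved alike. The widest gap was that of 1415943_at, with 9.69 and 9.77 for Jmjd2a and 9.63 and 9.73 for Jmjd2c at day 3, against 8.41 and 7.82 in controls, or 3.05 times and 2.95 times the control level. Over the 4 probe sets the day 3 differences were 1.07 to 1.61 with Jmjd2a and 0.95 to 1.56 with Jmjd2c, and the control change between the days -1.75 to -1.20, all past the test. None of these 3 passed the test of unequal change against the brightest probe set. In the fit on the arrays of that comparison alone, 1448158_at no longer passed with Jmjd2c at day 3 (0.95, adjusted p = 0.0597).

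At day 1 Sdc1 was lower under both labels in 2 of its 4 probe sets. Probe set 1415944_at fell by 0.60 with Jmjd2a and 0.55 with Jmjd2c (adjusted p = 0.00173 and 0.00234), and 1437279_x_at by 0.41 and 0.51 (adjusted p = 0.0146 and 0.00317). The other 2 gave -0.36 and -0.36 with Jmjd2a and -0.41 and -0.39 with Jmjd2c and did not pass. Without control day 3 replicate 2, which enters these tests through the pooled spread alone, 1415943_at passed with Jmjd2a and with Jmjd2c (adjusted p = 0.00287 and 0.00108) and 1448158_at with Jmjd2c (adjusted p = 0.0297). For 1437279_x_at the Jmjd2a call ended without either control array (-0.46 and -0.36) or Jmjd2a replicate 1 (-0.27), and the Jmjd2c call without control replicate 2 (-0.46, adjusted p = 0.0502). Between day 3 and day 1, 1415944_at rose by 0.42 under the Jmjd2a label and 0.43 under the Jmjd2c label (adjusted p = 0.0197 and 0.0113), and 1437279_x_at by 0.37 under the Jmjd2c label (adjusted p = 0.0208). These calls over time ended without either day 3 array of the label, and without Jmjd2a day 1 replicate 1 (0.39) or Jmjd2c day 1 replicate 2 (0.36) for 1415944_at and Jmjd2c day 1 replicate 1 (0.31) for 1437279_x_at, with values of 0.31 to 0.47 in all.

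**Figure D3:**
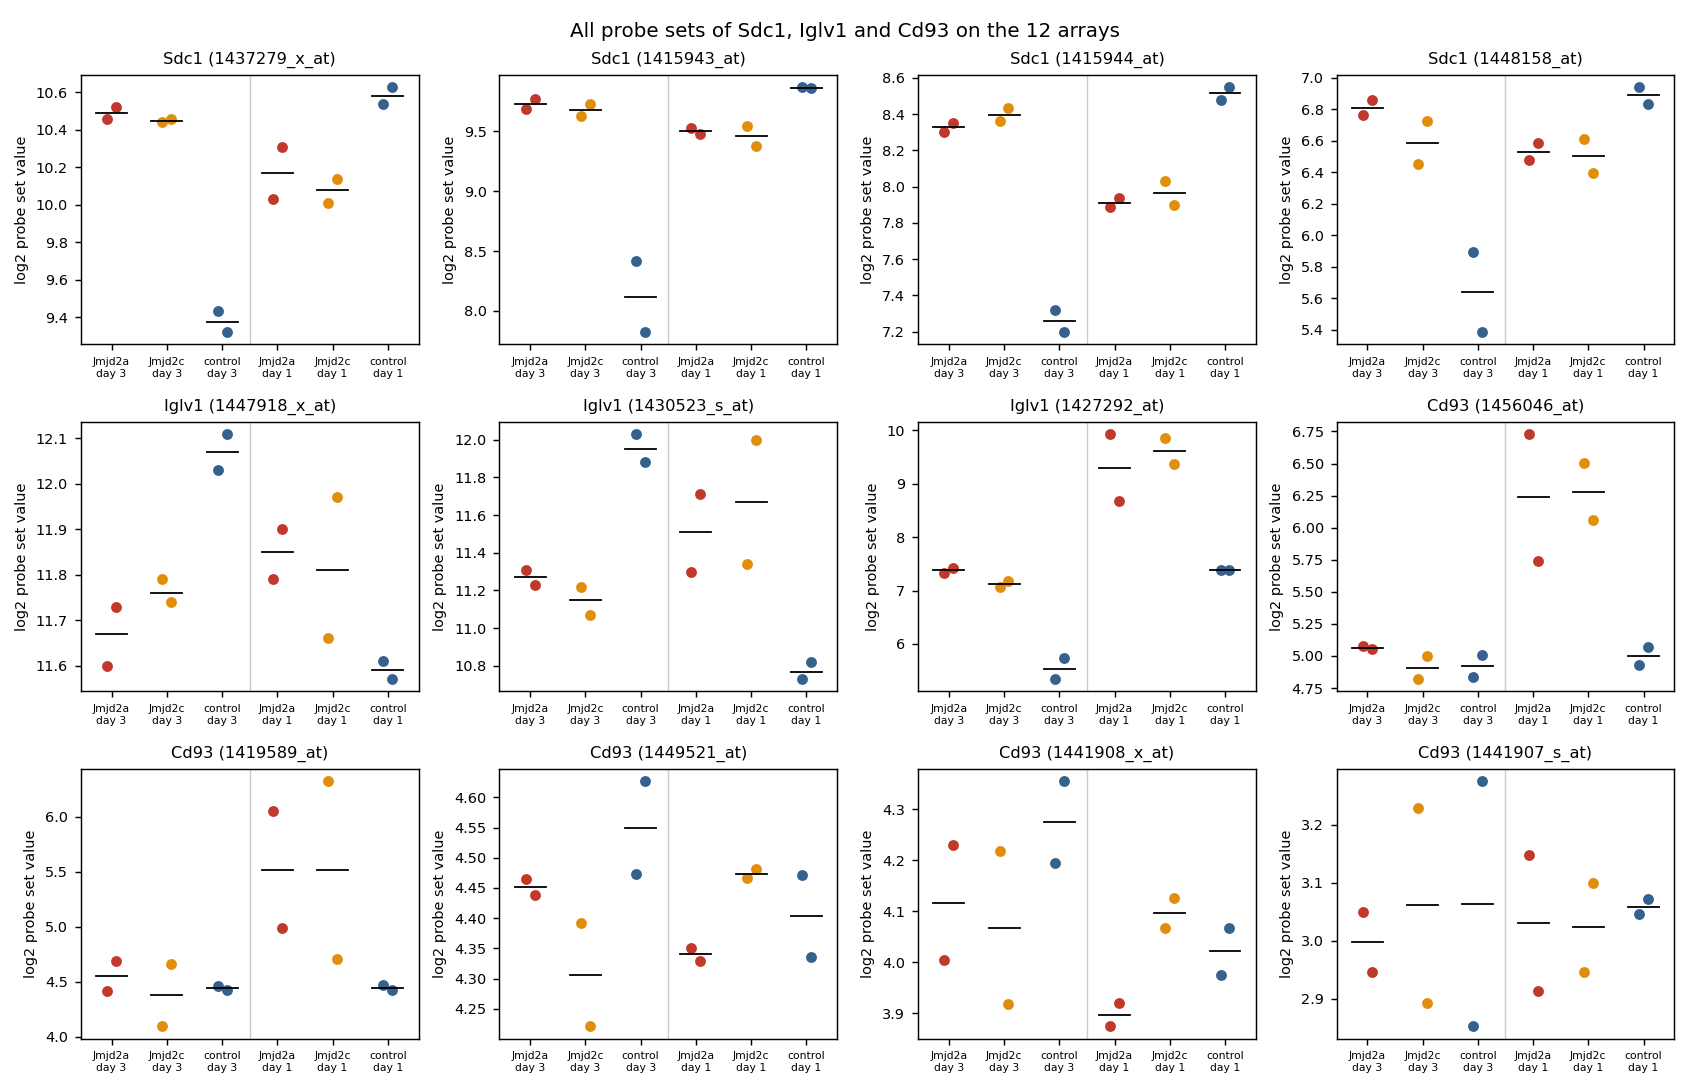
Log2 value of every probe set of Sdc1, Iglv1 and Cd93 (vertical axis, own scale per panel) on the 12 arrays by group; points are arrays and black lines means of 2. All 4 Sdc1 panels have the day 3 controls lowest, the Iglv1 panels disagree, with the day 3 controls at 12.03 and 12.11 and highest in 1447918_x_at but at 5.34 and 5.73 and lowest in 1427292_at, and among Cd93 panels 1456046_at and 1419589_at are higher in the labelled arrays of day 1.

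Jchain and Sdc1 moved in opposite directions in each of the 6 comparisons with control or over time that passed for both. Their promoters are shown for that reason. The bases are the 250 before the RefSeq start of each gene in GRCm38.p6, read 5′ to 3′ on the gene's strand, with matches to searched motifs in capitals.
Jchain: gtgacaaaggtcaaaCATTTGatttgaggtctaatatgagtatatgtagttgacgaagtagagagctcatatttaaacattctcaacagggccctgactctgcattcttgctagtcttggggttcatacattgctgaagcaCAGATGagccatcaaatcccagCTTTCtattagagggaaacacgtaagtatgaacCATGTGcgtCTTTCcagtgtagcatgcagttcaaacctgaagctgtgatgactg
Sdc1: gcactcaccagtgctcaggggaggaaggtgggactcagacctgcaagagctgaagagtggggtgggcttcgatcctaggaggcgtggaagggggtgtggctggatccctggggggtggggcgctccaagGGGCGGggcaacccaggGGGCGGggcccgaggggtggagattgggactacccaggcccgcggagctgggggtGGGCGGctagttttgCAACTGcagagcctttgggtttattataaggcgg
The Jchain window is chr5:88527898-88528147 on the minus strand and the Sdc1 window chr12:8771146-8771395 on the plus strand. Of the 9 genes 5 had an entry (Jchain, Sdc1, Cd44, Slamf7 and Tnfrsf17); Cd93, Ighm, Iglv1 and Mzb1 did not. The motifs, searched on both strands, were CANNTG (the E-box of E proteins), GAAAG (the core of the sequence bound by Blimp-1), GGGCGG (the GC box) and ATGCAAAT (the octamer of immunoglobulin promoters), and no matches overlapped in these 2 windows. The Jchain window held 3 matches to CANNTG, 2 to GAAAG and 0 to the others, at 42% G and C. The Sdc1 window held 1 match to CANNTG, 3 to GGGCGG and 0 to the others, at 66% G and C. Among 32526 mouse windows of the same length, 66.2% held CANNTG, 51.6% GAAAG, 33% GGGCGG and 1.62% ATGCAAAT, and the median content of G and C was 52.4%. A match describes the letters and not a site in use.

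Tnfrsf17, the gene of BCMA, was dim, with a mean of 4.22 that lies under the median probe set. It read at day 3 3.56 and 3.98 on the Jmjd2a-labelled arrays and 3.72 and 3.98 on the Jmjd2c-labelled arrays, against 4.20 and 4.54 on control arrays. At day 1 it read 4.61 and 4.47 with the Jmjd2a label and 4.79 and 4.69 with the Jmjd2c label, against 4.09 and 4.06 in controls. The labelled arrays lay below all controls at day 3 and above them at day 1. It fell at day 3 by 0.60 with Jmjd2a (log2, adjusted p = 0.0219), and the difference with Jmjd2c, -0.52, did not pass (adjusted p = 0.0548). The day 1 rise with Jmjd2c was 0.66 (adjusted p = 0.0214), and 0.46 with Jmjd2a did not pass (adjusted p = 0.124). Between the days it fell by 0.76 under the Jmjd2a label and 0.89 under the Jmjd2c label (adjusted p = 0.0168 and 0.00511), and controls gave 0.29, not past the test. All of these calls ended without single arrays. They were -0.43 without control replicate 2 and -0.39 without Jmjd2a replicate 1 at day 3, 0.61 to 0.71 without any 1 of the arrays at day 1, -0.69 and -0.55 without replicate 1 of Jmjd2a at day 1 or day 3, and -0.76 without Jmjd2c day 3 replicate 1.

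Slamf7, a SLAM family receptor of plasma cells and NK cells, had small differences with the pattern of Jchain. Its values at day 3 were 6.30 and 6.23 on the Jmjd2a-labelled arrays and 6.14 and 6.38 on the Jmjd2c-labelled arrays, against 6.75 and 6.60 on control arrays. At day 1 they were 6.41 and 6.57 with the Jmjd2a label and 6.43 and 6.62 with the Jmjd2c label, against 6.23 and 6.12 in controls. No labelled array reached the controls of its day. Slamf7 fell at day 3 by 0.41 with Jmjd2a and 0.41 with Jmjd2c (adjusted p = 0.0411 and 0.0494), was 0.50 higher in controls at day 3 than at day 1 (adjusted p = 0.0127), and gave 0.32 and 0.35 at day 1, not past the test. The Jmjd2a call at day 3 ended without control replicate 1 (-0.33) or either Jmjd2a array (-0.44 and -0.37). With Jmjd2c the call ended without control replicate 1 (-0.34) or either Jmjd2c array (-0.29 and -0.53). The control change ended without control day 1 replicate 2 (0.45).

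Cd93, a C-type lectin-like receptor found on early B cells, plasma cells, monocytes and endothelium, differed at day 1 in its brightest probe set, 1456046_at. This read 6.73 and 5.74 with the Jmjd2a label and 6.51 and 6.06 with the Jmjd2c label, against 4.93 and 5.07 in controls. At day 3 it read 5.08 and 5.05 with Jmjd2a and 4.82 and 5.0 with Jmjd2c, against 4.83 and 5.01 in controls. Both labels lay above controls at day 1, with the higher value in replicate 1 each time, and all groups lay together at day 3. It was 2.36 times the control level with Jmjd2a at day 1 (log2 difference 1.24 (SE 0.253, adjusted p = 0.0109)) and 2.43 times with Jmjd2c (1.28 (SE 0.253, adjusted p = 0.0066)). At day 3 the differences were 0.14 and -0.01, with 95% intervals of -0.41 to 0.70 and -0.56 to 0.54. The log2 difference of day 3 from day 1 was -1.17 under the Jmjd2a label and -1.37 under the Jmjd2c label (adjusted p = 0.0179 and 0.00517), and -0.08 in controls did not pass.

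The Cd93 calls depended on single arrays. The Jmjd2a call at day 1 ended without either control array (1.17 and 1.31) or Jmjd2a replicate 1 (0.75, adjusted p = 0.0749), and the Jmjd2c call without control replicate 1 (1.21) or Jmjd2c replicate 1 (1.06). Over time the Jmjd2a call ended without Jmjd2a day 1 replicate 1 (-0.68) or either day 3 array (-1.18 and -1.16), and the Jmjd2c call without replicate 1 of either day (-1.15 and -1.28). Of the other 4 Cd93 probe sets, 1419589_at read 6.05 and 4.99 with Jmjd2a and 6.33 and 4.71 with Jmjd2c at day 1, against 4.47 and 4.42 in controls, and its differences of 1.07 and 1.07 did not pass (adjusted p = 0.188 and 0.16). The last 3, 1449521_at, 1441908_x_at and 1441907_s_at, lay between 2.85 and 4.63 on every array and passed in no comparison. Their change at day 1 with Jmjd2a was unequal to that of 1456046_at by -1.36 to -1.27 (adjusted p between 0.0364 and 0.0416).

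Cd44, the hyaluronan receptor of activated lymphocytes, passed the test at day 3 and not at day 1. Its brightest probe set, 1423760_at, read at day 3 10.52 and 10.49 on the Jmjd2a-labelled arrays and 10.64 and 10.51 on the Jmjd2c-labelled arrays, against 11.41 and 11.46 on control arrays, and at day 1 10.31 and 10.54 with the Jmjd2a label and 10.19 and 10.43 with the Jmjd2c label, against 10.37 and 10.35 in controls. The day 3 controls stood above all other arrays, whose values lay between 10.19 and 10.64. Cd44 was 0.525 times the day 3 control level with Jmjd2a (log2 difference -0.93 (SE 0.0886, adjusted p = 2.53e-05)) and 0.552 times with Jmjd2c (-0.86 (SE 0.0886, adjusted p = 5.25e-05)), and it rose 2.11-fold in controls between the days (adjusted p = 4.69e-06). At day 1 the differences were 0.06 and -0.05, with intervals of -0.13 to 0.25 and -0.24 to 0.14. Probe sets 1434376_at and 1452483_a_at passed in the same comparisons with the same signs, at -0.79 and -0.78 with Jmjd2a, -0.90 and -0.91 with Jmjd2c, and 1.19 and 0.93 over time in controls. These calls held without each array in turn. The remaining probe set, 1443265_at, is dim, at 2.71 to 3.13, and passed in none. Over time no Cd44 probe set passed under either label.

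**Figure D4:**
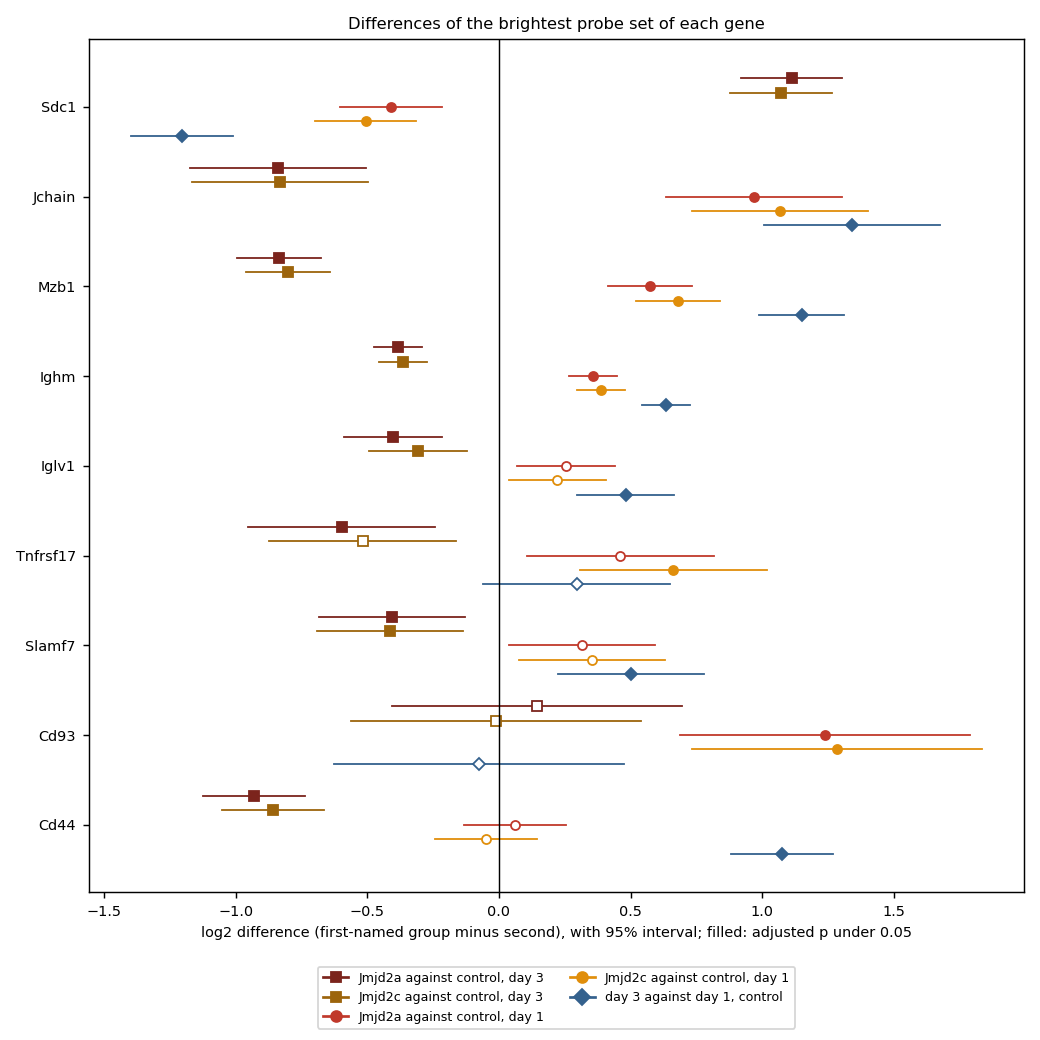
Log2 difference (horizontal axis) of the brightest probe set of each gene in 5 comparisons, with 95% intervals of the limma fit; squares are day 3, circles day 1 and diamonds the controls' day 3 minus day 1, and filled symbols passed the test. Sdc1 lies on the opposite side of 0 from Jchain, Mzb1 and Ighm in all 5, from 1.11 with Jmjd2a at day 3 to -1.20 over time in controls.

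Jmjd2a-labelled and Jmjd2c-labelled arrays were also set against each other. Of the 31 probe sets 0 passed at day 3 and 0 at day 1 in limma, and 0 of all 45037 (0%) did either, and at an unadjusted p under 0.05 the counts were 0 and 0 of 31 and 2571 and 1081 of all. For Sdc1 (1437279_x_at) the Jmjd2a minus Jmjd2c difference was 0.04 at day 3 (95% interval -0.15 to 0.23) and 0.10 at day 1 (-0.10 to 0.29). For Jchain it was -0.01 (-0.34 to 0.33) and -0.10 (-0.43 to 0.24), for Mzb1 -0.03 (-0.19 to 0.13) and -0.11 (-0.27 to 0.05), and for Ighm 1427351_s_at -0.02 (-0.11 to 0.07) and -0.03 (-0.12 to 0.06). The Iglv1 probe set 1427292_at had wider intervals, -0.40 to 0.92 at day 3 and -0.97 to 0.36 at day 1, with Cd93 1456046_at at -0.40 to 0.71 and -0.60 to 0.51. These intervals bound the difference between the labels and do not show that both act alike. In the fit on only those arrays, 1 Ighm probe set, 1427870_x_at, passed at day 3 (-0.16, adjusted p = 0.0487).

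Some calls also ended when the arrays were scaled or weighted otherwise. With arrays centred on their medians, Ighm 1425324_x_at and Slamf7 no longer passed at day 3 with either label (adjusted p between 0.0524 and 0.0688), nor did Ighm 1425247_a_at over time under the Jmjd2c label (0.65, adjusted p = 0.0572). With array weights, both Slamf7 calls and both 1425324_x_at calls of day 3 ended, as did those of Ighm 1452535_at, Iglv1 1430523_s_at and Tnfrsf17 with Jmjd2a, that of Iglv1 1447918_x_at with Jmjd2c, and the control changes of Slamf7, 1427870_x_at and 1452535_at. In fits on the arrays of each comparison alone, Slamf7 ended in 3 comparisons, Ighm 1452535_at and Tnfrsf17 at day 3 with Jmjd2a, and Jchain over time under the Jmjd2c label (adjusted p = 0.0662).

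By level, the groups fell into 1 order for several members. Jchain, Mzb1 and the Ighm probe sets 1427351_s_at and 1427329_a_at ran from day 3 controls at the top through Jmjd2c and Jmjd2a at day 1 and Jmjd2c and Jmjd2a at day 3 to day 1 controls. Neighbouring groups whose arrays overlapped were both labels at day 1 and both labels at day 3 in each of these, and for Jchain also the day 3 controls and the Jmjd2c-labelled arrays of day 1. Sdc1 1437279_x_at ran from day 1 controls through Jmjd2a and Jmjd2c at day 3 and Jmjd2a and Jmjd2c at day 1 to day 3 controls, with overlap again only between labels of one day. Across pairs of a gene's brightest probe set with each of its others, 10 of 22 member pairs changed unequally in at least 1 of the 7 comparisons with control or over time, against 18.3% of the 16752 pairs in 9010 genes. At day 3 it was 3 of 22 with Jmjd2a and 3 with Jmjd2c, against 10.1% and 4.87% of all pairs, and at day 1 it was 4 and 5, against 2.29% and 3.71%. Over time it was 0 under the Jmjd2a label, 5 under the Jmjd2c label and 6 in controls, against 1.45%, 3.02% and 12.5%. None of the 3 Sdc1 pairs was among them, and the Ighm, Iglv1, Cd93 and Cd44 pairs that were include those named above, the dim Ighm probe set 1427869_at, Ighm 1427870_x_at, all 3 flat Cd93 probe sets and the dim Cd44 probe set.

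Genes that act beside the members were counted from lists, each gene by its brightest probe set and with the median difference in log2. At day 3, 16% of all genes were higher and 9.04% lower with Jmjd2a, and 12.1% higher and 7.21% lower with Jmjd2c; at day 1 it was 5.72% and 4.60% with Jmjd2a and 7.57% and 7.35% with Jmjd2c. Of 6 other genes of immunoglobulins and their receptor, 0 rose and 2 fell at day 3 with Jmjd2a and with Jmjd2c (medians -0.533 and -0.352, against -0.0483 and -0.0115 over all genes). At day 1, 2 and 3 rose and 0 fell (medians 0.605 and 0.799, all genes -0.0434 and -0.0288). Cd79b, a signalling chain of the B cell receptor, averaged 11.44 with Jmjd2a and 11.46 with Jmjd2c at day 3, against 12.06 in controls (adjusted p = 0.000696 and 0.00113), and 12.63 and 12.94 at day 1, against 11.16 (adjusted p = 3.49e-06 and 5.85e-07). Igha, the IgA heavy chain, averaged 13.22 in controls at day 3, against 10.18 at day 1 (difference 3.04, adjusted p = 0.00173), and Igk fell at day 3 by 0.55 with Jmjd2a and 0.42 with Jmjd2c (adjusted p = 0.00223 and 0.015).

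In the list of 22 genes of immunoglobulin folding and secretion, 8 rose and 4 fell at day 3 with Jmjd2a and 8 rose and 5 fell with Jmjd2c, with medians of 0.165 and 0.127. Sec11c, a subunit of the signal peptidase, fell with the IgM genes, by 0.79 and 0.84 (adjusted p = 1.64e-05 and 1.35e-05), and rose by 1.14 over time in controls (adjusted p = 6.03e-07). The chaperone Hspa5 (BiP) ran the other way, with 12.76 in day 3 controls, against 13.15 in day 1 controls (difference -0.39, adjusted p = 2.58e-05). At day 3 it averaged 13.02 with Jmjd2a and 13.05 with Jmjd2c, the latter 0.30 above controls (adjusted p = 0.000357). Canx, calnexin, was 0.30 and 0.31 higher at day 3 under the labels (adjusted p = 0.000317 and 0.000291). At day 1, 5 genes rose and 0 fell with Jmjd2a and 5 rose and 3 fell with Jmjd2c, among them the oxidase Ero1b at 0.78 and 0.90 (adjusted p = 0.000509 and 0.000132).

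Of 18 measured genes of plasma cell transcription and identity, 3 rose and 5 fell with Jmjd2a and 3 rose and 6 fell with Jmjd2c at day 3 (medians -0.0557 and -0.153), and 8 and 7 rose and 0 fell at day 1 (medians 0.238 and 0.264). Xbp1, the transcription factor that drives the secretory programme, averaged 11.87 with Jmjd2a and 11.91 with Jmjd2c at day 3. Day 3 controls averaged 12.55 (adjusted p = 8.15e-06 and 1.42e-05), and Xbp1 rose in controls by 0.80 between the days (adjusted p = 1.16e-06). Cd9 went the other way at day 3, at 9.52 with Jmjd2a (adjusted p = 0.000481) and 9.46 with Jmjd2c, against 8.67 in controls. Prdm1 averaged 7.63 with Jmjd2a and 7.41 with Jmjd2c at day 3, against 7.58 in controls. The homing receptors Itga4 and Cxcr4 rose at day 1, by 2.80 and 1.73 with Jmjd2a and by 2.96 and 1.80 with Jmjd2c (adjusted p between 2.39e-07 and 9.94e-05). Among 7 genes of the BAFF and APRIL axis of Tnfrsf17, 0 rose and 1 fell with Jmjd2a and 0 rose and 2 fell with Jmjd2c at day 3 (medians -0.174 and -0.196), and 2 and 3 rose and 0 fell at day 1 (medians 0.216 and 0.204). The adaptor Traf5 rose at day 1 by 1.14 and 1.34 (adjusted p = 0.000994 and 0.000219), and Traf1 fell at day 3 by 0.63 and 0.60 (adjusted p = 0.000594 and 0.00102).

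Of 9 genes of the SLAM family and its adaptors, 1 rose and 4 fell with Jmjd2a and 1 rose and 5 fell with Jmjd2c at day 3 (medians -0.354 and -0.293), and 5 rose and 0 fell at day 1 with each label (medians 0.547 and 0.58). Slamf6 averaged 7.97 with Jmjd2a and 7.93 with Jmjd2c at day 3, against 9.50 in controls (adjusted p = 5.56e-05 and 5.5e-05). At day 1 it averaged 8.49 and 8.72, against 7.07 (adjusted p = 0.000276 and 6.03e-05). Slamf1 went the other way at day 3, at 8.36 with Jmjd2a and 8.24 with Jmjd2c, against 7.085 in controls. Among 6 genes of other syndecans, syntenin and heparan sulfate synthesis (the last Ext1 and Ext2), 0 passed at day 3 against control (medians -0.00703 and -0.0198) and 1 rose at day 1, Sdc4, by 0.63 and 0.75 (adjusted p = 0.00999 and 0.00268). Of 4 genes of the Cd93 family and its ligand (Cd248, Thbd, Clec14a and the ligand Mmrn2), 0 passed against control on either day, with medians of -0.0583 to 0.00772. Of 8 partners of Cd44, 1 rose and 2 fell with Jmjd2a at day 3 and 1 rose and 1 fell with Jmjd2c (medians -0.144 and -0.122). The hyaluronan receptor Hmmr fell by 1.41 and 1.30 (adjusted p = 1.81e-06 and 3.19e-06). It rose by 1.82 in controls between the days (adjusted p = 1.17e-07). Ezr rose at day 3, by 0.38 with Jmjd2a and 0.39 with Jmjd2c (adjusted p = 0.00848 and 0.00958).

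Markers of other spleen cells also differed between the groups. Of 11 macrophage and monocyte markers, 0 rose and 8 fell with Jmjd2a and 0 rose and 7 fell with Jmjd2c at day 3, and 10 and 11 rose at day 1. Their mean level was 6.08 to 6.16 with Jmjd2a and 6.08 to 6.24 with Jmjd2c at day 3, against 7.18 to 7.26 in controls. At day 1 it was 8.21 to 8.50 and 8.06 to 9.17, against 5.35 to 5.39 in controls, where 6 and 7 of the 11 lay above the array median. Csf1r averaged 10.14 with Jmjd2a and 10.55 with Jmjd2c at day 1, against 5.71 in controls. Of 5 NK cell markers, 4 fell with each label at day 3 and 4 and 5 rose at day 1, with mean levels of 5.70 to 5.80 and 5.70 to 5.89 at day 3, against 7.03 to 7.19 in controls. None of these markers could be called at 0 on a log2 scale.

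The differences of the macrophage and NK cell markers have the sign of those of Jchain, Mzb1, Ighm, Iglv1, Slamf7 and Tnfrsf17 on both days, by their brightest probe sets, of Cd44 at day 3 and of Cd93 at day 1. All 4 Sdc1 probe sets had the opposite sign on both days, and Ighm 1425385_a_at and Iglv1 1427292_at had it at day 3. At day 1 Ighm 1425385_a_at and the 4 dimmer Ighm probe sets had it under both labels, none past the test. With Jmjd2a that sign rested on 1 array. The part of the macrophage and NK cell markers in the members' results was not tested. The 6 neutrophil markers stood at 7.53 and 8.15 in replicate 2 of the Jmjd2a-labelled and Jmjd2c-labelled arrays of day 1, against 5.46 and 5.51 in replicate 1, with day 1 controls at 4.68 and 4.73. Of the 31 member probe sets 19 were higher in replicate 2 under both labels at day 1 and 6 lower, against 27.2% and 30.5% of all probe sets. The 19 include those of Jchain and Slamf7, 9 of Ighm, 2 of Iglv1 and all 4 of Cd44, and the 6 include 2 of Cd93, with 1456046_at. B cell markers rose too at day 1, 6 of 7 with each label, with a mean level of 10.97 to 11.29 and 11.25 to 11.27, against 10.32 to 10.37 in controls. At day 3 0 rose and 2 fell, with 10.40 to 10.42 and 10.40 to 10.41, against 10.58 to 10.67 in controls. Of 8 T cell markers 3 rose and 0 fell at day 1, and 1 rose and 2 fell at day 3. At day 1, 1 of 5 endothelial, 1 of 6 immature B cell and 1 of 4 plasmacytoid dendritic cell markers rose with each label, and 1 and 2 of 4 erythroid and platelet markers.

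**Figure D5:**
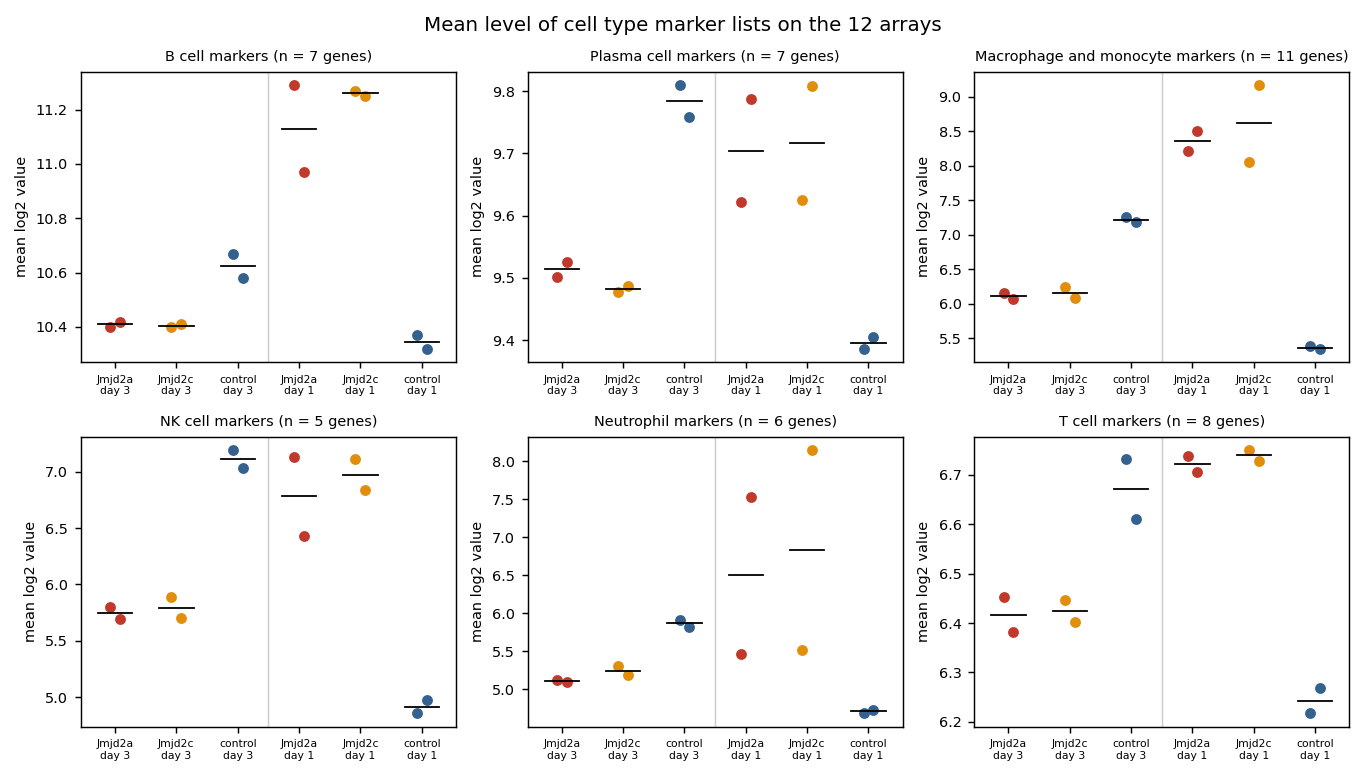
Mean log2 level (vertical axis, own scale per panel) of lists of cell type markers on the 12 arrays by group; points are arrays and black lines means of 2. Macrophage and NK cell markers are lower under both labels than in controls at day 3 and higher at day 1, as are B cell markers, and the plasma cell panel includes Sdc1, Jchain, Mzb1 and Tnfrsf17.

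Over the 6 group means, centred on their mean, the genes most like each member among 11183 candidates (11184 for Tnfrsf17) were found by the root mean square difference in log2. For Sdc1 these were Slc25a33 (0.0276) and Wnt1 (0.0323), for Jchain Mpeg1 (0.0519) and Ly96 (0.0615), and for Mzb1 Rdm1 (0.0286) and Itgal (0.0315). Mpeg1 and Ly96 are known from macrophages and other myeloid cells. Ighm was nearest to Eid1 (0.0296) and Pced1b (0.0349), Iglv1 to Stmn3 (0.0287) and 4933438B17Rik (0.0299), and Slamf7 to Stk4 (0.0193) and Fam107b (0.0254). The nearest genes to Cd93 were Dennd2d (0.0665) and Ier5 (0.0676), to Cd44 C130026I21Rik (0.0459) and Phf11d (0.0589), and to Tnfrsf17 H2ac19 (0.092) and E230029C05Rik (0.0941). Group means of Sdc1 spanned 1.20 and those of Slamf7 0.50, so a small difference means less for a member of small range.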

How the data were processed

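The deposited table holds log2 probe set values of 12 arrays, per the file's values; the array scanning, the summary of probes and the normalization are not given in the sources used here. Biotin-labelled cRNA was made from total RNA, per the labels' protocols. Array medians lay between 5.195 and 5.255. After removal of 64 control probe sets from 45101, 45037 were fitted as deposited in limma 3.58.1 (R 4.3.3), with 6 group means, empirical Bayes moderation and an intensity trend, leaving 6 residual degrees of freedom and a median of 5.849 from the prior. Each of 11 contrasts had its p-values corrected by the Benjamini-Hochberg method across the whole table, with a threshold of 0.05. Each further probe set of a gene was paired with its brightest one and tested as a per-array difference, without the intensity trend. Annotation gave 1 gene to 34945 probe sets, several to 932 and none to 9160, for 18193 genes. Symbols were checked against GRCm38.p6 and 0 were updated.

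The members and lists were chosen with earlier results of these data known. Named beside them are up to 3 genes of smallest p per list and comparison, Slamf1 and Prdm1, and the nearest 2 genes in pattern. For length not all are printed. Number of arrays limits the precision: n = 2 per group. Array values carry no read depth. Replicates shared 38 to 59 identical values and were kept as separate samples. Replicate deviations correlated at 0.392 between both labels at day 1 and at -0.111 to 0.0917 in the other 14 pairs of groups, so that replicate numbers were not used as pairs. Promoters were from RefSeq. The fit was tested on simulated data with independent noise and 1 spread per probe set for all groups. In these arrays the pooled SD was 0.259 in day 3 controls, against 0.115 to 0.157 in the other groups. The simulation did not cover that difference. Figures used matplotlib 3.10.9 in Python 3.11.15. The alternatives were quantile normalization, median centring, bright probe sets only, array weights, 1 probe set per gene, only the arrays of a contrast, a replicate block and leaving out each array.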

Additional observations from a re-analysis of the deposited data

Results flagged for a closer look

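The difference from control changed between the days in many members, by an interaction term in limma (log2, day 3 difference minus day 1 difference; negative where the difference from control was lower at day 3 than at day 1). The median of the 31 probe sets was -0.371 for Jmjd2a and -0.463 for Jmjd2c, against -0.0144 and 0.0113 over all probe sets. Groups of 2 arrays are too small to ask whether 1 array stands far from the rest.

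Sdc1 gave 1.52 and 1.58 (1437279_x_at), 1.97 and 1.97 (1415943_at), 1.67 and 1.69 (1415944_at) and 1.53 and 1.34 (1448158_at), each time for Jmjd2a and Jmjd2c. Jchain gave -1.81 and -1.90 and Mzb1 -1.41 and -1.48. For Ighm the values were -0.74 and -0.75 (1427351_s_at), -1.40 and -1.51 (1427329_a_at), 2.41 and 2.67 (1425385_a_at) and -0.94 and -0.99 (1452535_at). Iglv1 gave -0.66 and -0.53 (1447918_x_at) and -1.42 and -1.70 (1430523_s_at), Tnfrsf17 -1.06 and -1.18 and Slamf7 -0.72 and -0.77. Cd44 gave -0.99 and -0.81 (1423760_at), -1.07 and -1.10 (1434376_at) and -0.65 and -0.61 (1452483_a_at). Cd93 1456046_at passed with Jmjd2c (-1.29) and gave -1.09 with Jmjd2a (adjusted p = 0.0533), which did not pass.

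The calls of 1452535_at, Slamf7 and Cd44 1452483_a_at ended for both labels, and that of Cd93 for Jmjd2c, without single arrays. Values were then -1.03 to -0.74 with Jmjd2a and -1.05 to -0.67 with Jmjd2c for 1452535_at, -0.69 to -0.64 and -0.71 to -0.65 for Slamf7, -0.69 to -0.44 and -0.65 to -0.57 for Cd44 1452483_a_at, and -1.39 to -1.07 for Cd93.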

How the results depend on the processing

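Of 3844 recomputed differences 3435 kept their direction and side of the threshold, 176 changed sign but passed in neither fit, 145 no longer passed, 88 newly passed and 0 turned round while past it. Of 128 calls, 128 held under quantile normalization, 123 with centred arrays, 117 with array weights, 120 in fits on the compared arrays, and 121 without control day 3 replicate 2. For the refits of this section the share of all probe sets that passed is not given, so the counts have no background. With 1 probe set per gene the counts were 5 and 6 (Jmjd2a and Jmjd2c at day 1), 8 and 8 (day 3). Over time they were 7 in controls and 5 with Jmjd2c, and for the change of the difference between days 9 and 9. Here 9 probe sets are counted in place of 31, and 57 calls held and 4 were gained. Those were Tnfrsf17 with Jmjd2c at day 3, Sdc1 and Mzb1 with Jmjd2a over time, and Cd93 with Jmjd2a for the change between days. Over time with Jmjd2a, array weights gave 10. Leaving out single arrays gave counts of 6 to 11 and 7 to 13 at day 1, 13 to 18 for each label at day 3, 17 to 22 in controls over time, 2 to 11 and 3 to 13 under the labels over time, and 14 to 20 and 14 to 19 for the change between days. Between the labels at day 3, the compared arrays alone gave 1 call. Unequal pairs numbered 6 among bright probe sets, and their number shifted without single arrays. The cause of these shifts was not tested. With the replicate block the counts were 9 and 10 at day 1, 19 and 18 at day 3, 21 in controls, and 7 and 12 under the labels over time, and 127 of 128 calls held, the exception being Slamf7 with Jmjd2c at day 3. It also passed 4 more: Ighm 1452535_at and Tnfrsf17 with Jmjd2c at day 3, and Sdc1 1437279_x_at and Ighm 1427870_x_at with Jmjd2a over time. Deviations of same-numbered arrays correlated at 0.392 between both labels at day 1 and at 0.0917 at most in other pairs of groups, so replicate numbers were not taken as pairs. With 2 arrays per group, low signal limits Tnfrsf17, Cd93 and the dim Ighm and Cd44 probe sets.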

Other observations

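Probe sets that name a member beside another gene were not counted among the 31. Of 5 such probe sets 1 passed, 1424931_s_at, which names Iglc1, the constant region of a lambda chain, together with Iglv1. It read 11.12 and 10.96 with Jmjd2a and 11.02 and 10.87 with Jmjd2c at day 3, against 11.69 and 11.61 in controls. At day 1 it read 11.70 and 11.75 with Jmjd2a and 11.74 and 12.14 with Jmjd2c, against 10.55 and 10.73 in controls. It fell at day 3, by 0.61 and 0.71, rose at day 1, by 1.08 and 1.30, and rose by 1.01 over time in controls (adjusted p between 2.04e-05 and 0.00222). These are the signs of Iglv1 probe sets 1447918_x_at and 1430523_s_at. The other 4 passed in none of the comparisons with control or over time.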
